A study of Mus musculus with 12 samples.

Results

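Small leucine-rich proteoglycans are secreted proteins whose core is a row of leucine-rich repeats, and most carry chondroitin, dermatan or keratan sulfate chains. The report follows 10 genes of this group, picked by symbol as *Dcn*, *Bgn*, *Aspn*, *Lum*, *Prelp*, *Omd*, *Kera*, *Ogn*, *Podn* and *Ecm2*. They are 10 of the 53801 genes counted in 12 libraries of mouse heart RNA, and 9 of the 10 passed the filter on low counts that 15306 genes passed. The rule used the symbol and no measured value, but the list of symbols was chosen with earlier results of these data known. Counts of its members beside the share of all genes are therefore descriptions and not tests.

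Adult C57BL/6N mice, which the study treats as wild type, had acute myocardial infarction (AMI) by ligation of the left anterior descending coronary artery, and hearts were taken 1 day or 7 days later. Sham-operated C57BL/6N mice were the controls, and the sources used here do not give the day for each sham heart. With 4 hearts each, the groups are called day 1 AMI, day 7 AMI and sham. RNA came from the heart as a whole, so infarct, border and remote muscle were not separated, and fewer cells of a type and less RNA per cell cannot be told apart. The labels number the hearts in a group and say no more about the animals, so p-values measure the spread between these samples. Each library held from 23204551 to 32166517 counts. Transcripts that mark cardiomyocytes, fibroblasts and endothelium were high in every library, as the label heart implies. Sham replicate 2 held the most erythroid transcript, at 4462 CPM (counts scaled to library size) against 491 to 1181 in the other sham hearts, and it was the lowest sham heart for *Bgn*, *Lum*, *Ogn*, *Aspn*, *Omd* and *Ecm2*.

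These proteoglycans bind fibrillar collagens and set the width and spacing of fibrils. Several also bind growth factors such as TGF-β, and biglycan and decorin set free from matrix are known to signal through Toll-like receptors. In the heart they are made mainly by fibroblasts, and scar formation after infarction lays down the collagen that they decorate. By sequence they fall into classes, with *Dcn*, *Bgn* and *Aspn* in class I, *Lum*, *Prelp*, *Omd* and *Kera* in class II, *Ogn* in class III, *Podn* in class V, and *Ecm2* as a relative.

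By day 7 AMI, 8 of the 9 genes tested had risen from day 1 AMI, where 8.55% of all genes tested had. Of the 9, 4 (*Bgn*, *Lum*, *Aspn* and *Omd*) stood above sham by a fold change (FC) of at least 2, as did 15.3% of all genes. *Aspn* changed most, 14.1-fold from day 1 to day 7, and *Bgn* rose 4.49-fold and passed *Dcn* as the most abundant transcript of the group. At day 1 AMI 0 of the 9 passed both thresholds against sham, where 7.79% of all genes were called higher and 2.98% lower, but *Dcn*, *Ogn*, *Prelp* and *Ecm2* were lower at FCs of 1.47 to 1.70. *Podn* passed the thresholds in none of the comparisons, and *Kera* was at or near 0 throughout. Levels are given as CPM after TMM normalization, which corrects for library size and composition. Calls come from edgeR's quasi-likelihood test with Benjamini-Hochberg adjustment over 15306 genes, with a FC of at least 2 and a false discovery rate (FDR) under 0.05.

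**Figure D1:**
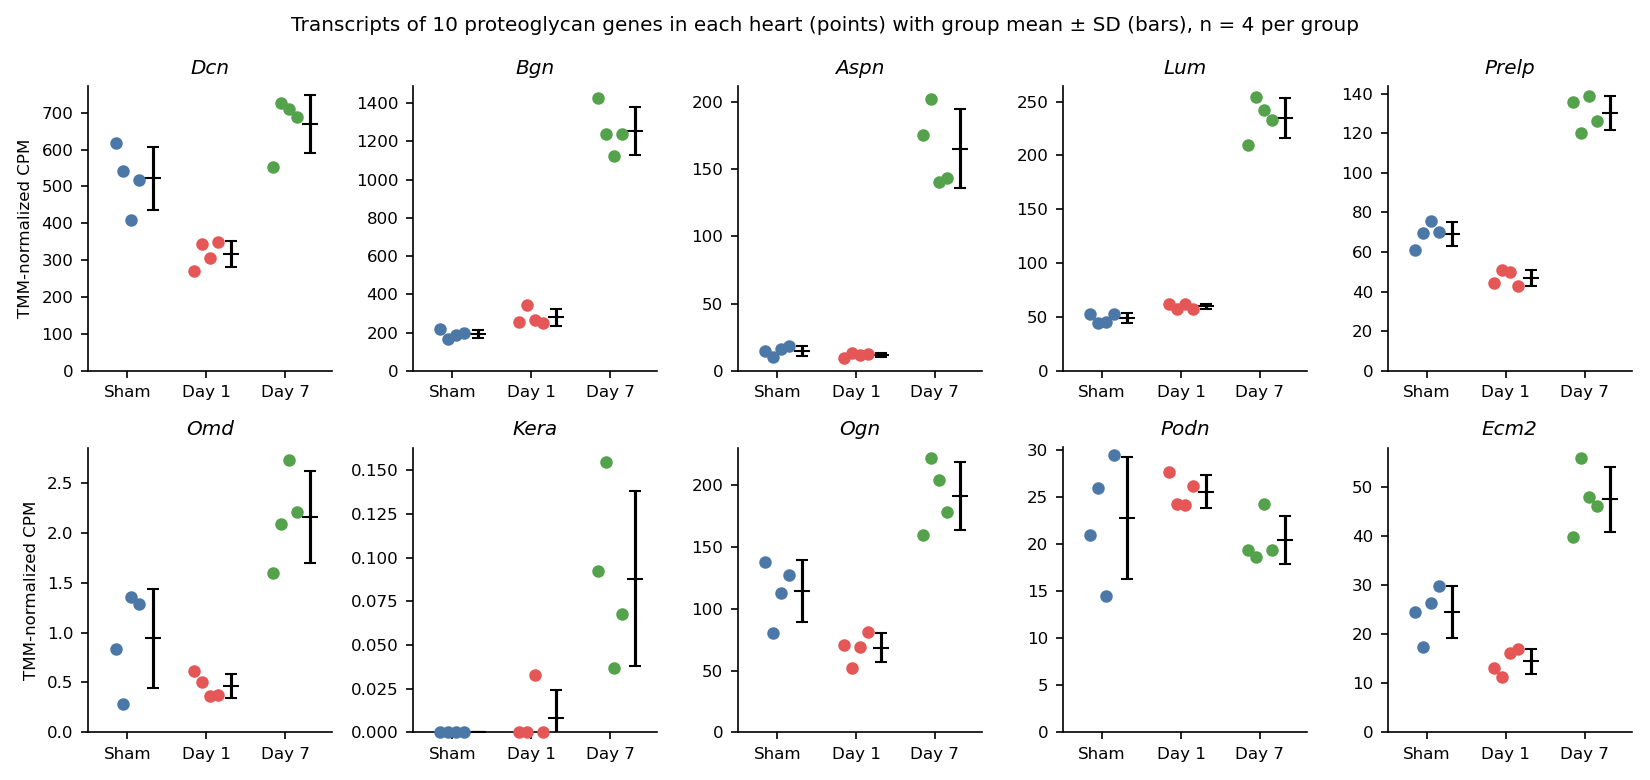
TMM-normalized CPM of each gene (vertical axes, each from 0 on its own scale) in hearts of the 3 groups, with points for hearts and black bars for the group mean ± SD (n = 4). Day 7 AMI hearts lie above all day 1 AMI hearts in every panel but *Podn*, and *Dcn*, *Ogn*, *Prelp* and *Ecm2* have their lowest means at day 1 AMI. For *Kera*, replicate 3 of day 1 AMI and replicate 3 of day 7 AMI each held 1 count, so only library scaling orders them.

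Biglycan is a class I core protein with chondroitin or dermatan sulfate chains that binds collagen and, in soluble form, the receptors TLR2 and TLR4. *Bgn* (ENSMUSG00000031375) lies on the plus strand of chromosome X, bases 73483602 to 73495933 of the GRCm38 build. Its levels were 217, 166, 187 and 199 CPM in the sham hearts, 257, 347, 266 and 249 at day 1 AMI, and 1426, 1236, 1123 and 1239 at day 7 AMI. The 3 groups did not overlap. The level rose 6.53-fold from sham to day 7 AMI, from a mean of 192 ± 21.3 to 1256 ± 125 CPM (SD, n = 4), a log2 FC of 2.71 (SE 0.13, edgeR FDR 3.87e-09). Most of that increase came after day 1, with a log2 FC of 0.54 (SE 0.12, FDR 0.00277) from sham to day 1 AMI and 2.17 (SE 0.12, FDR 3.18e-08) from day 1 to day 7. The first step was under a FC of 2 and was not called.

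Asporin, also of class I, has a run of aspartate residues in place of a glycosaminoglycan chain, and it binds collagen and TGF-β. *Aspn* (ENSMUSG00000021388, chromosome 13, 49544443 to 49567565, plus strand) had 14.7, 10.2, 16.1 and 18.6 CPM in sham hearts, 9.60, 13.0, 11.6 and 12.5 at day 1 AMI, and 175, 202, 140 and 143 at day 7 AMI. Sham and day 1 AMI hearts overlapped, and the lowest day 7 AMI heart was well above both. Its log2 FC was −0.35 (SE 0.17, FDR 0.115) at day 1 AMI against sham, 3.82 (SE 0.18, FDR 4.41e-09) from day 1 to day 7, and 3.47 (SE 0.18, FDR 7.15e-09) at day 7 AMI against sham. Raw counts went from 249 to 390 per sham library to 3806 to 5688 per day 7 AMI library, so counting error was small beside the change.

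Decorin, the class I protein named for the way it decorates collagen fibrils, carries a chondroitin or dermatan sulfate chain and binds TGF-β. *Dcn* (ENSMUSG00000019929, chromosome 10, 97479609 to 97518143, plus strand) had 618, 542, 410 and 518 CPM in sham hearts, 272, 343, 307 and 349 at day 1 AMI, and 552, 725, 711 and 688 at day 7 AMI. Every day 1 AMI heart was below every sham heart, and sham and day 7 AMI hearts overlapped. The log2 FC of day 1 AMI against sham was −0.72 (SE 0.13, FDR 0.000682), a level 1.64-fold lower that was not called. It then rose 2.11-fold by day 7 (log2 FC 1.07, SE 0.13, FDR 2.02e-05). Against sham the day 7 AMI level was 1.28-fold higher, with an FDR of 0.0269 by edgeR and no call.

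Lumican belongs to class II, carries keratan sulfate in cornea, and limits the width of collagen fibrils. *Lum* (ENSMUSG00000036446, chromosome 10, 97565128 to 97572703, plus strand) had 53.2, 44.6, 45.0 and 53.2 CPM in sham hearts, 61.7, 57.9, 62.3 and 57.8 at day 1 AMI, and 210, 254, 242 and 233 at day 7 AMI. All groups were apart, and within groups *Lum* varied little, with a coefficient of variation of 4.04% to 9.88%. It was 1.22-fold higher at day 1 AMI than in sham (log2 FC 0.29, SE 0.09, FDR 0.0143), under the FC minimum, and rose 3.92-fold from day 1 to day 7 (log2 FC 1.97, SE 0.09, FDR 2.67e-09). From sham to day 7 AMI the log2 FC was 2.26 (SE 0.09, FDR 8.15e-10).

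Osteoglycin, or mimecan, is a class III protein that takes part in collagen fibril assembly. *Ogn* (ENSMUSG00000021390, chromosome 13, 49608046 to 49624501, plus strand) had 138, 80.1, 113 and 127 CPM in sham hearts, 71.1, 52.5, 69.4 and 81.0 at day 1 AMI, and 160, 222, 204 and 178 at day 7 AMI. The highest day 1 AMI heart was just above the lowest sham heart, and day 7 AMI hearts were above all others. *Ogn* was 1.67-fold lower at day 1 AMI than in sham (log2 FC −0.74, SE 0.17, FDR 0.00288, not called) and rose 2.79-fold from day 1 to day 7 (log2 FC 1.48, SE 0.17, FDR 1.14e-05). At day 7 AMI it was 1.67-fold above sham (log2 FC 0.74, SE 0.17, FDR 0.00142), again under the FC minimum.

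PRELP, of class II, has a basic amino-terminal part that binds heparin and links basement membranes to collagen. *Prelp* (ENSMUSG00000041577, chromosome 1, 133910304 to 133921414, minus strand) had 61.2, 69.7, 75.5 and 70.2 CPM in sham hearts, 44.5, 51.0, 50.1 and 42.9 at day 1 AMI, and 136, 120, 139 and 126 at day 7 AMI. The groups were apart in this order, day 1 AMI, sham, day 7 AMI. Its log2 FCs were −0.55 (SE 0.09, FDR 0.000259, not called) at day 1 AMI against sham and 1.46 (SE 0.09, FDR 4.24e-08) from day 1 to day 7. The day 7 AMI level was 1.88-fold above sham (log2 FC 0.91, SE 0.09, FDR 1e-06), which stayed under the FC minimum. The antisense gene *Gm15851* covers 9.68% of the exon bases of *Prelp*, but it had at most 6 counts in a library.

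ECM2 is a matrix protein with leucine-rich repeats like those of decorin. *Ecm2* (ENSMUSG00000043631, chromosome 13, 49504810 to 49532789, plus strand) had 24.6, 17.4, 26.4 and 29.9 CPM in sham hearts, 13.2, 11.4, 16.3 and 17.0 at day 1 AMI, and 39.9, 55.9, 48.1 and 46.2 at day 7 AMI. Day 1 AMI hearts were below all sham hearts by a narrow gap, and day 7 AMI hearts were above both. It was 1.70-fold lower at day 1 AMI than in sham (FDR 0.00242, not called) and rose 3.29-fold by day 7 (log2 FC 1.72, SE 0.17, FDR 3.3e-06). Measured from sham, the log2 FC by day 7 was 0.95 (SE 0.16, FDR 0.000177), just under the minimum of 1. It passed the minimum without sham replicate 4 (1.06) and without day 7 AMI replicate 1 (1.03).

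Osteomodulin, of class II, is best known from bone and carries keratan sulfate. *Omd* (ENSMUSG00000048368, chromosome 13, 49582462 to 49592822, plus strand) was scarce, with 16, 7, 28 and 27 raw counts in sham libraries, 16, 17, 11 and 12 at day 1 AMI, and 52, 54, 74 and 65 at day 7 AMI. The lowest sham value was in replicate 2, the heart with the most erythroid transcript, and all day 7 AMI hearts were above all others. *Omd* rose 4.63-fold from day 1 to day 7 (log2 FC 2.21, SE 0.38, FDR 0.000304) and was 2.30-fold above sham at day 7 AMI (log2 FC 1.20, SE 0.36, FDR 0.0104). At day 1 AMI its log2 FC of −1.01 (SE 0.40) missed the FDR, at 0.0567. Without sham replicate 2 both calls changed, with log2 FCs of −1.33 (FDR 0.0041) at day 1 AMI and 0.88 (FDR 0.0158) at day 7 AMI against sham. Of the 75-base stretches of its transcripts, 3.38% also occur in other genes, so a few of its reads are uncertain.

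Podocan, of class V, is known as a collagen-binding protein of smooth muscle and kidney. *Podn* (ENSMUSG00000028600, chromosome 4, 108014791 to 108096445, minus strand) had 21.0, 26.0, 14.5 and 29.5 CPM in sham hearts, 27.7, 24.3, 24.1 and 26.2 at day 1 AMI, and 19.4, 18.6, 24.2 and 19.4 at day 7 AMI. The hearts of all groups overlapped, and the sham hearts spread most, with a coefficient of variation of 28.7% against 6.66% at day 1 AMI. Its log2 FCs were 0.17 (SE 0.17, FDR 0.441), −0.33 (SE 0.17, FDR 0.121) and −0.16 (SE 0.17, FDR 0.435) at day 1 AMI against sham, day 7 AMI against day 1 AMI, and day 7 AMI against sham. The last of these turned positive when libraries were scaled by size alone (0.24) or compared as TPM.

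Keratocan is the class II keratan sulfate proteoglycan of the cornea. *Kera* (ENSMUSG00000019932, chromosome 10, 97606879 to 97613692, plus strand) had 0 counts in every sham library, 0, 0, 1 and 0 at day 1 AMI, and 3, 4, 1 and 2 at day 7 AMI. A count of 0 allows up to 3 counts in a library, or 0.123 to 0.156 CPM in the sham libraries, for counting error only. Day 7 AMI values were 0.0369 to 0.155 CPM, close to the limit that 3 counts set there, and no FC is given. The gene did not pass the filter on low counts. A fit without that filter covered 26544 genes. Its FDRs for *Kera* by edgeR were 0.544 at day 1 AMI against sham, 0.0849 from day 1 to day 7 and 0.0299 at day 7 AMI against sham. The last passed the thresholds, but it rests on 1 to 4 counts per day 7 AMI library and is not read as a rise.

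The genes were next compared across AMI as a group. At day 1 AMI against sham, 0 of the 9 tested were called in either direction, as stated above. Hearts were all higher than sham for 2 of the 9 (*Bgn* and *Lum*), where 19.6% of all genes were so, and all lower for 3 (*Dcn*, *Prelp* and *Ecm2*), where 17.1% were. At an FDR below 0.05 with no FC minimum, 2 were higher (*Bgn* and *Lum*) against 22.0% of all genes, and 4 were lower (*Dcn*, *Ogn*, *Prelp* and *Ecm2*) against 19.9%. The median log2 FC of the 9 was −0.55, and that of all genes tested −0.01.

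From day 1 to day 7, 8 of the 9 rose, all but *Podn*, and 0 fell, where 2.69% of all genes did. The same 8 had no overlap between the groups, all of them higher, where 23.5% of all genes were higher and 20.9% lower without overlap. At an FDR below 0.05 alone the count was also 8 higher and 0 lower, where 24.2% and 22.8% of all genes were. Their median log2 FC was 1.72, and that of all genes 0.02. At day 7 AMI against sham 4 of the 9 were called higher and 0 lower, where 5.88% of all genes were lower. The median log2 FC was 0.95, beside 0.03 for all genes. With libraries scaled by size alone, or by limma on TPM, the count was 7, with *Ogn*, *Prelp* and *Ecm2* added. Scaling by size alone, limma on log2(TPM + 1) and limma on log2(TPM + 0.1) called 3633, 2668 and 4163 of all 15306 genes higher. The main fit called 2346 of all genes higher. In the same order of fits the median log2 FC of all genes was 0.425, 0.437 and 0.570. For 7 of the 9 every day 7 AMI heart was above every sham heart, where 28.3% of all genes were, and for 0 below, where 24.7% were. At an FDR below 0.05 alone 8 of the 9 were higher, where 30.9% of all genes were, and 0 lower, where 28.4% were. The comparisons with day 1 AMI share the day 1 AMI hearts, so a low day 1 value enters both.

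**Figure D2:**
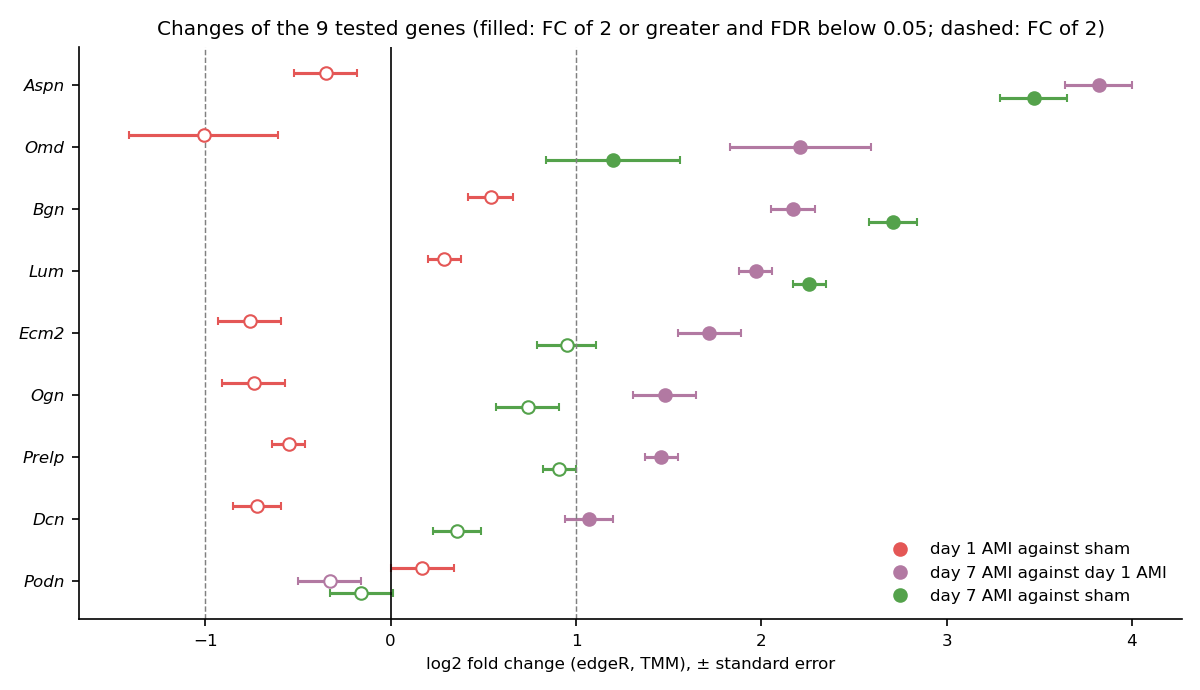
Log2 FC (horizontal axis, edgeR with TMM, ± SE) of the 9 tested genes in the 3 comparisons, with filled points for calls (FC of at least 2, FDR under 0.05). *Aspn*, at 3.82 and 3.47, lies furthest to the right, and no point for *Podn* is filled.

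Levels of different genes were compared per length, as TPM, which scales reads to transcript length and library size. *Dcn* was the most abundant of the group in sham hearts, at 378 ± 51.6 TPM (SD, n = 4), ahead of *Bgn* at 100 ± 5.70, *Ogn* at 53.4 ± 8.89, *Lum* at 24.2 ± 1.14 and *Prelp* at 22.4 ± 3.11. *Podn*, *Aspn* and *Ecm2* followed at 9.01 ± 2.64, 7.86 ± 1.72 and 7.48 ± 1.48 TPM, and *Omd* at 0.718 ± 0.344. *Lum* and *Prelp* overlapped between hearts in sham, as did *Podn* with *Aspn* and *Aspn* with *Ecm2*. At day 1 AMI the order of means was the same, but *Ogn* (40.3 ± 7.63 TPM) and *Lum* (37.1 ± 0.805) overlapped.

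At day 7 AMI the order changed at the top. *Bgn* came first at 973 ± 111 TPM and *Dcn* second at 713 ± 80.8, and every heart had more *Bgn* than the highest heart had *Dcn*. *Lum* followed at 171 ± 12.4, then *Ogn* at 132 ± 16.8 and *Aspn* at 128 ± 22.3, whose hearts overlapped. *Prelp* was at 62.0 ± 4.12, *Ecm2* at 21.3 ± 2.76, *Podn* at 11.9 ± 1.31 and *Omd* at 2.51 ± 0.502 TPM. *Aspn* moved from the level of *Ecm2* in sham to that of *Ogn*.

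The summed TPM of the 10 genes was 604 ± 44.5 in sham hearts, 597 ± 58.2 at day 1 AMI and 2215 ± 101 at day 7 AMI (SD, n = 4). TPM is not corrected for composition as TMM-normalized CPM is. In that CPM the 10 genes summed to 889 to 1149 in sham hearts and 758 to 901 at day 1 AMI. At day 7 AMI they summed to 2635 to 2835 CPM. Within the summed TPM the share of *Dcn* went from 62.5% ± 4.43 to 48.4% ± 2.63 and 32.2% ± 3.53. The share of *Bgn* went from 16.7% ± 1.85 to 30.9% ± 3.34 and 43.9% ± 4.45, and that of *Aspn* from 1.32% ± 0.351 to 1.29% ± 0.0818 and 5.79% ± 0.861. Shares of 1 sum are not independent, and they were not tested.

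**Figure D3:**
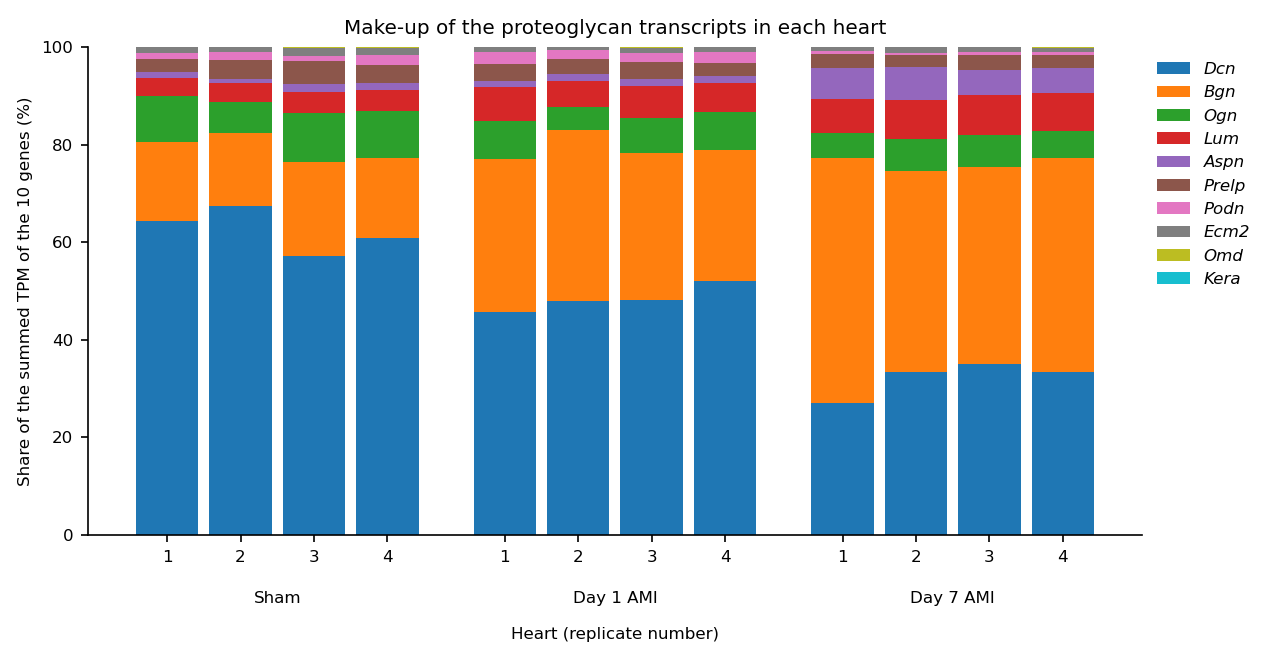
Share of each gene in the summed TPM of the 10 genes (vertical axis, percent) for each of the 12 hearts, with the hearts of a group side by side. *Dcn* makes up 57.2% to 67.5% of the sum in sham hearts and 27.1% to 35.1% at day 7 AMI, where *Bgn* makes up 40.3% to 50.2%.

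To test these shifts without any scaling between libraries, the TPM ratio of genes was taken within each heart and compared on the log2 scale by an exact permutation test, two-sided, with 4 hearts in each group. The smallest p of such a test is 0.0286, which adjusted to 0.0396 over the 18 tests because many of them tied at it. The tests share *Dcn* and the same hearts, so they are not independent. The ratio of *Bgn* to *Dcn* was 0.219 to 0.336 in sham hearts, 0.517 to 0.729 at day 1 AMI and 1.15 to 1.85 at day 7 AMI. The groups were fully apart, with geometric means of 0.266, 0.635 and 1.36 (exact p = 0.0286, adjusted p = 0.0396, for each pair of groups).

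*Lum* moved the same way against *Dcn*, with geometric means of 0.0644, 0.129 and 0.241 (exact p = 0.0286, adjusted p = 0.0396, for each pair). For *Aspn* the ratio was 0.0205 in sham and 0.0267 at day 1 AMI, which overlapped (exact permutation p = 0.343, adjusted p = 0.363), and 0.179 at day 7 AMI, apart from both (exact p = 0.0286, adjusted p = 0.0396). The ratio of *Ogn* to *Dcn* was 0.140, 0.138 and 0.185, and its groups overlapped. Its fold at day 1 AMI against sham was 0.985 (exact permutation p = 0.857, adjusted p = 0.857), and at day 7 AMI it was 1.32-fold above sham (exact permutation p = 0.0571, adjusted p = 0.0686).

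Outside the group, *Col1a1*, the main chain of type I collagen, rose against *Dcn* at each step, from 0.0701 to 0.302 and 1.06 (exact p = 0.0286, adjusted p = 0.0396). It varied at day 7 AMI hearts, from 0.563 to 2.54, and was highest in replicate 1, which also had the highest ratio of *Bgn* to *Dcn*. *Pdgfra*, a receptor on fibroblasts, stood at 0.0234 of *Dcn* in sham, 0.0533 at day 1 AMI and 0.0275 at day 7 AMI. Its day 1 AMI ratio was above both other groups (exact p = 0.0286, adjusted p = 0.0396).

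**Figure D4:**
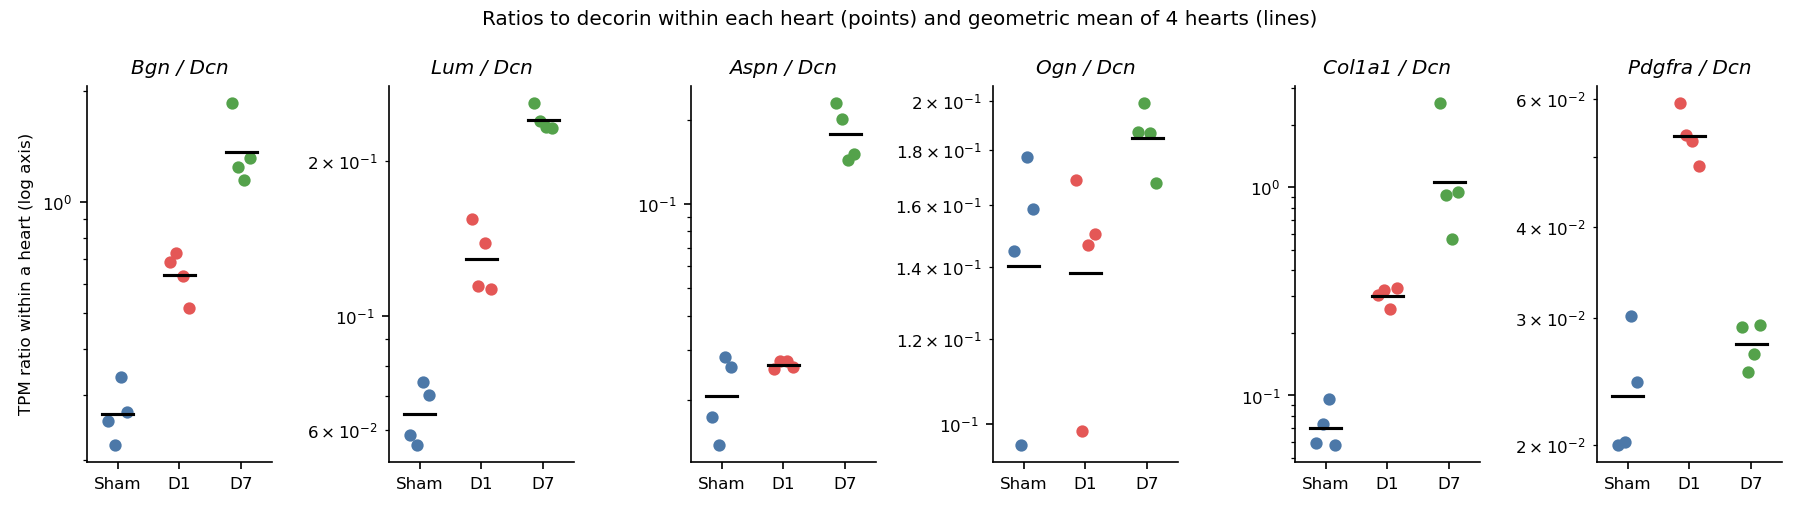
TPM of each gene divided by that of *Dcn* in the same heart (vertical log axes, each on its own scale), with points for hearts and lines for the geometric mean of 4 hearts. *Bgn*, *Lum* and *Col1a1* rise at both steps, *Aspn* rises only at day 7, the groups of *Ogn* overlap, and *Pdgfra* is highest at day 1 AMI.

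Markers of other cells moved in the same hearts. Counts called in these and later lists stand beside the shares of all genes tested. Called higher were 7.79% at day 1 AMI against sham, 8.55% from day 1 to day 7 and 15.3% at day 7 AMI against sham. Called lower were 2.98%, 2.69% and 5.88% in the same order. The summed CPM of 10 fibroblast markers was 1493 to 2064 in sham, 1142 to 1567 at day 1 AMI and 1620 to 1960 at day 7 AMI. Sham overlapped with both other groups, but every day 7 AMI heart was above every day 1 AMI heart, as in 8 of the 9 proteoglycan genes tested. From day 1 to day 7, 5 of the 10 markers rose (*Tcf21*, *Col15a1*, *Pi16*, *Lamc3* and *Mfap4*) and 0 fell. The largest rises in CPM were those of *Col15a1*, from 135 to 154 up to 385 to 513, and *Mfap4*, from 8.51 to 14.6 up to 213 to 311. The other 5 markers were not called in that comparison. The largest single part of the sum was *Gsn*, at 1042 to 1675 CPM in sham hearts, 731 to 1129 at day 1 AMI and 532 to 864 at day 7 AMI. The order of the sums therefore does not stand for all 10 markers. At day 7 AMI against sham 3 of the 10 rose (*Tcf21*, *Col15a1* and *Mfap4*), 1 fell (*Gsn*), and *Pdgfra* was 0.61 higher on the log2 scale (SE 0.09, FDR 5.66e-05) without a call. The 10 markers of activated fibroblasts and myofibroblasts summed to 146 to 272 CPM in sham, 333 to 636 at day 1 AMI and 2093 to 4170 at day 7 AMI, and 9 of the 10 rose from sham to day 7 AMI. *Postn*, which encodes periostin, had a log2 FC of 5.99 (SE 0.20, FDR 1.18e-10). The 10 cardiomyocyte markers summed to 72966 to 87039 CPM in sham, 46668 to 57697 at day 1 AMI and 40111 to 46125 at day 7 AMI, and 7 of the 10 fell from sham to day 7 AMI. Their part in the changes of the proteoglycan genes was not tested.

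Other cells of the heart were read from shorter lists. None of 8 endothelial markers was called at day 7 AMI against sham, and their sum was 940 to 1093 CPM in sham hearts, 825 to 881 at day 1 AMI and 1280 to 1424 at day 7 AMI. The 8 mural cell markers summed to 1185 to 1370, 770 to 950 and 1240 to 1384 CPM in the same order, with 2 higher and 1 lower at day 7 AMI than in sham. Epicardial markers summed to 15.7 to 32.4, 13.3 to 36.6 and 32.3 to 46.5 CPM, with 3 of 8 higher at day 7 AMI than in sham, and Schwann cell markers to 17.8 to 21.6, 20.8 to 26.1 and 19.8 to 22.5, with 0 of 5 tested higher and 1 lower.

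Macrophage markers summed to 246 to 369 CPM in sham hearts, 487 to 694 at day 1 AMI and 709 to 1093 at day 7 AMI, and 6 of 8 were higher at day 7 AMI than in sham. Neutrophil markers summed to 2.39 to 55.8, 39.7 to 144 and 7.61 to 38.5 CPM, with 5 of 7 tested lower at day 7 than at day 1. Erythroid markers summed to 491 to 4462, 421 to 649 and 241 to 970 CPM, with 4 of 6 lower at day 7 AMI than in sham. The 5 atrial markers summed to 95.4 to 875, 485 to 1266 and 1218 to 1862 CPM. From sham to day 7 AMI *Nppa* was called higher, *Bmp10* lower, and the other 3 were not called. *Nppa* made up most of the day 7 AMI sum, with 55.6 to 555 CPM in sham hearts and 1176 to 1803 at day 7 AMI. *Bmp10* was uneven in sham hearts, at 2.66, 9.28, 0.097 and 66.3 CPM, so its fall rests largely on replicate 4. The part of these cells in the proteoglycan changes was not tested.

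Cartilage and tendon matrix also hold these proteoglycans. Of 10 markers of cartilage and bone 8 were tested. Called higher at day 7 AMI than in sham were 5 of the 8 (*Comp*, *Acan*, *Col2a1*, *Sox9* and *Matn3*), where 15.3% of all genes were. *Col2a1* had 1 to 3 counts in sham libraries and *Matn3* had 0. Both passed the filter on low counts only through the day 7 AMI hearts, so their calls are not independent of it. The sum over the list went from 6.73 to 17.5 CPM in sham hearts up to 91.2 to 143 at day 7 AMI. *Comp*, a collagen-binding matrix protein, made up most of it at day 7 AMI, at 60.9 to 98.1 CPM, while the bone genes *Ibsp* and *Bglap* had at most 1 count in any library. The tendon markers *Scx*, *Thbs4* and *Fmod* also rose from sham to day 7 AMI, while *Tnmd* and *Mkx* had at most 17 counts in any library. The sum over the tendon list was 11.4 to 19.1 CPM in sham hearts, 27.7 to 42.2 at day 1 AMI and 119 to 193 at day 7 AMI. These lists overlap with the proteoglycans. The tendon list holds *Kera*, a gene under study, and *Fmod*, of the same family, which had 56.7 to 94.4 CPM at day 7 AMI. The cartilage list holds *Chad*, also of the family.

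The rest of the family was read from a list of 8 genes, of which 7 were tested. From day 1 to day 7, 2 of the 7 were called higher and none lower, where 8.55% and 2.69% of all genes were. At day 7 AMI against sham 3 of the 7 were higher, where 15.3% of all genes were. Both counts include *Podnl1*, which passed the filter on low counts only through the day 7 AMI hearts. *Fmod*, which encodes fibromodulin, a class II keratan sulfate proteoglycan of tendon, had 3.70, 6.98, 4.61 and 3.06 CPM in sham hearts, 3.33, 4.51, 2.91 and 2.52 at day 1 AMI, and 94.4, 67.6, 57.0 and 56.7 at day 7 AMI. It rose 20.7-fold from day 1 to day 7 (log2 FC 4.37, SE 0.26, FDR 3.68e-08). In TPM its day 7 AMI level was 38.6 ± 10.1, between those of *Prelp* and *Ecm2*.

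*Podnl1*, a paralog of *Podn*, was scarce, with 0 to 2 counts in sham libraries, 2 to 11 at day 1 AMI and 18 to 40 at day 7 AMI. Its mean was 0.141 CPM at day 1 AMI, where 3 counts set a limit of 0.0895 to 0.115 CPM, and 0.985 at day 7 AMI. The gene passed the filter on low counts only through the day 7 AMI hearts. Its calls are therefore not independent of that filter, and no FC is given. *Tsku*, which encodes tsukushi, a secreted protein that binds BMP and TGF-β family ligands, rose already at day 1 AMI (log2 FC 1.52, SE 0.30, FDR 0.00127). Its log2 FC from day 1 to day 7 was 0.32 (SE 0.28, FDR 0.356). *Epyc*, *Chad*, *Nyx* and *Chadl* were not called in any comparison, and *Optc* was not tested.

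Genes that build the sulfated chains were then counted. Over all genes tested, 7.79% were higher at day 1 AMI and 15.3% at day 7 AMI than in sham. None of 6 enzymes of the linker that joins chain to core was called at day 1 AMI, and 1, *Xylt1*, was higher at day 7 AMI than in sham (log2 FC 1.73, SE 0.18, FDR 2.73e-06). *Xylt1* encodes a xylosyltransferase that starts the chain. Of 15 tested enzymes that extend, epimerise and sulfate chondroitin and dermatan sulfate, 4 were higher at day 1 AMI and 9 at day 7 AMI than in sham, and none was lower. *Dse*, an epimerase that makes dermatan from chondroitin, had log2 FCs against sham of 1.12 (SE 0.13, FDR 4.28e-05) and 1.74 (SE 0.13, FDR 1.48e-07).

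Of 6 tested keratan sulfate enzymes, 2 were higher at day 1 AMI (*B3gnt7* and *Chst1*) and 3 at day 7 AMI than in sham (*B3gnt7*, *Chst1* and *Chst2*). *Chst1*, a keratan sulfate sulfotransferase, went from 3.09 to 7.61 and 11.1 CPM. *B3gnt7*, an extending enzyme, had 1.69 CPM at day 1 AMI against 0.143 in sham (log2 FC 3.54, SE 0.49, FDR 0.000111). It had only 6, 4, 1 and 1 counts in the sham libraries, close to the floor of 3 counts, so the size of this FC is uncertain. None of 6 genes for sulfate uptake and supply was called in any comparison. Median log2 FCs at day 7 AMI against sham were 0.26 for the linker, 1.15 for chondroitin and dermatan sulfate, 0.98 for keratan sulfate and 0.28 for sulfate supply, beside 0.03 for all genes.

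Partners of the core proteins in the matrix, such as fibrillar collagens, had the highest median of the pathway lists at day 7 AMI. Of its 22 genes 12 were higher at day 1 AMI than in sham and 20 at day 7 AMI, with medians of 1.29 and 2.91. Of all genes tested 7.79% and 15.3% were higher. *Col3a1*, which encodes type III collagen, had log2 FCs of 1.57 (SE 0.19, FDR 4.42e-05) and 3.79 (SE 0.20, FDR 1.08e-08) against sham. *Fbln1*, which encodes fibulin-1, was at −0.98 at day 1 AMI (FDR 0.0004, not called), rose by 1.11 from day 1 to day 7 (SE 0.16, FDR 0.000102), and stood at 0.13 against sham (FDR 0.516). *Dcn* had −0.72, 1.07 and 0.36 in the same order.

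Receptors and proteases were the last of the lists. Over all genes tested, 7.79% were higher and 2.98% lower at day 1 AMI than in sham, and 15.3% and 5.88% at day 7 AMI. Receptors described for decorin, biglycan or lumican gave 17 tested identifiers for 16 genes, since *Itgam* stands on a pair of identifiers. Of the 17, 6 were higher at day 1 AMI and 10 at day 7 AMI than in sham. *Tlr2*, a receptor for biglycan, had log2 FCs against sham of 1.09 (SE 0.16, FDR 0.000137) and 2.14 (SE 0.16, FDR 1.11e-07), and *Tlr4* stayed under a FC of 2 at 0.86 and 0.85. Of 15 proteases 8 were higher and 0 lower at day 1 AMI than in sham, and 8 were higher and 2 lower (*Tll2* and *Mmp3*) at day 7 AMI. *Bmp1*, which removes the propeptide of biglycan and of collagens, rose from day 1 to day 7 (log2 FC 1.25, SE 0.14, FDR 1.21e-05), and so did *Mmp14* (1.89, SE 0.26, FDR 5.56e-05), a membrane protease. *Mmp9*, a gelatinase, went the other way, from 22.0 CPM at day 1 AMI to 1.11 at day 7 AMI (log2 FC −4.30, SE 0.52, FDR 1.94e-05).

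**Figure D5:**
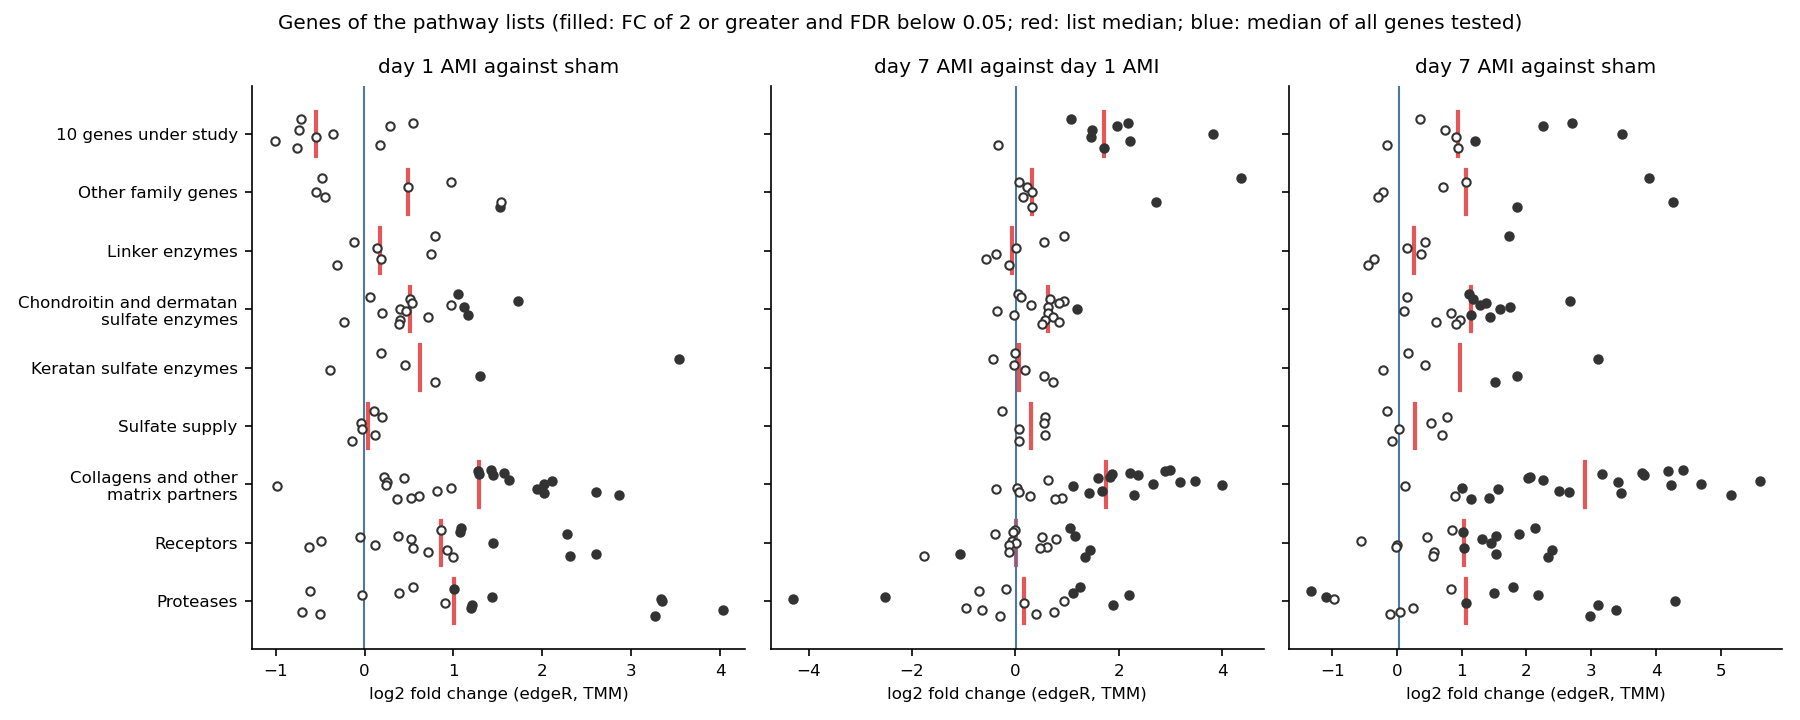
Log2 FC (horizontal axes, edgeR with TMM) of the tested genes of each list in the 3 comparisons, with points for genes, filled where called, red bars for the list median and a blue line for the median of all genes tested. The 10 genes under study have a median of −0.55 at day 1 AMI and 1.72 from day 1 to day 7, while matrix partners are at 1.29 and 1.76.

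Genes with a course like that of each member were found by the root mean square difference in log2 CPM over the 12 hearts, after each gene was centred on its sham mean. These are descriptions over the same hearts and libraries. Of the 36 pairs of members, *Ogn* and *Ecm2* were closest, at 0.172, and *Aspn* and *Podn* furthest apart, at 2.13. *Bgn* and *Lum* lay 0.344 apart, closer than *Bgn* and *Dcn* at 1.55 or *Dcn* and *Lum* at 1.25.

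Outside the members, the gene nearest to *Bgn* was *Adamts2* (0.183), a protease that trims procollagen, with log2 FCs of 0.74, 2.02 and 2.76 at day 1 AMI against sham, day 7 AMI against day 1 AMI and day 7 AMI against sham. Nearest to *Aspn* were *Itgbl1* (0.296) and *Adamtsl2* (0.305), which encodes a matrix protein related to ADAMTS proteases. The third in rank, *Matn3*, a cartilage matrilin, had 0 counts in every sham and day 1 AMI library and 13 to 26 at day 7 AMI, so its distance is set by the prior count and is not read as likeness. *Col6a1*, which encodes a type VI collagen chain, was among the 3 nearest to *Lum* (0.248), after *Fanci* and *Igf1*. For *Dcn* the nearest was *Clec1a* (0.115), for *Ogn* *Akr1c14* (0.187), for *Prelp* *Sparcl1* (0.153), for *Ecm2* *Rnf152* (0.208), for *Omd* *H1fx* (0.365) and for *Podn* *Qtrt2* (0.170).

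In the genome 7 of the 10 genes stand in runs with each other, and *Prelp* lies close to *Fmod* (chromosome 1, 134037254 to 134048277, plus strand), described above. On chromosome 10 *Dcn*, *Lum* and *Kera* lie in a row with *Epyc* over 202846 bases of GRCm38. The first neighbours, *Dcn* and *Lum*, are 46984 bases apart and both rose from day 1 to day 7, by log2 FCs of 1.07 and 1.97, while *Epyc* was at 0.08 (SE 0.41, FDR 0.883) and *Kera* near 0 counts.

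On chromosome 13 *Ecm2*, *Aspn*, *Omd* and *Ogn* lie head to tail within 119692 bases, from classes I, II and III and a relative. Their log2 FCs from day 1 to day 7 were 1.72, 3.82, 2.21 and 1.48, and at day 7 AMI against sham 0.95, 3.47, 1.20 and 0.74. All are inside the span of *Cenpp*, a centromere protein gene on the other strand. Of their exon bases only 7 of *Aspn* also belong to exons of *Cenpp*, 0.297% of them. *Cenpp* itself had at most 74 counts in a library, with log2 FCs of −0.75 (SE 0.23, FDR 0.0164), 1.31 (SE 0.22, FDR 0.000246) and 0.57 (SE 0.21, FDR 0.0336) in the same order of comparisons. The strand counted is not given in the sources used here, and whether reads of the proteoglycan genes entered its counts was not tested. Nearby, *Nol8* had log2 FCs of 0.00, 0.17 and 0.18, and *Ippk* 0.23, −0.23 and −0.00.

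Because these neighbours rose to such different degrees, the 250 bases before the RefSeq start of each are shown, 5′ to 3′ on the plus strand of GRCm38.p6. They run from 49504560 to 49504809 for *Ecm2*, 49544193 to 49544442 for *Aspn*, 49582212 to 49582461 for *Omd*, and 49607765 to 49608014 for *Ogn*. Capitals mark matches, on either strand, to the TATA box (TATAAA), the GC box (GGGCGG), the CCAAT box (CCAAT), the TEAD site (GGAATG) and the AP-1 site (TGANTCA).
Ecm2: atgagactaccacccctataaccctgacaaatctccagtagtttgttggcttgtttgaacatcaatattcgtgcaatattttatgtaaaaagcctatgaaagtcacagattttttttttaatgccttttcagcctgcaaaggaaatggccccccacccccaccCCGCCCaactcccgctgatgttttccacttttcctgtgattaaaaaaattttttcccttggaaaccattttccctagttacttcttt
Aspn: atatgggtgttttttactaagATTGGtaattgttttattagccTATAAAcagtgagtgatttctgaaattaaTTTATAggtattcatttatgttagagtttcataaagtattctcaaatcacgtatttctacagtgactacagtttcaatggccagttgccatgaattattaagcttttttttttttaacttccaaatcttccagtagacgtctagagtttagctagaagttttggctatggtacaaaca
Omd: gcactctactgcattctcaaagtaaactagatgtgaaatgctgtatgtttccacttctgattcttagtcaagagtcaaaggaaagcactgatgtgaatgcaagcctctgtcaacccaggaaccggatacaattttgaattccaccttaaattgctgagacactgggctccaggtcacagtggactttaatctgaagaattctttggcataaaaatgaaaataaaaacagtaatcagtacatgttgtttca
Ogn: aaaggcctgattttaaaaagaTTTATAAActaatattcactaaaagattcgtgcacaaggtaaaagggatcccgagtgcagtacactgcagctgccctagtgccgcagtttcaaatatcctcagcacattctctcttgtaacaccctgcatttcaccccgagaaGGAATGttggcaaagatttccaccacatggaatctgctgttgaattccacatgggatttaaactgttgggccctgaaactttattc

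The sequence of *Aspn* holds 2 matches to TATAAA and 1 to CCAAT. That of *Ogn* holds 2 matches to TATAAA, which overlap on opposite strands, and 1 to GGAATG, and that of *Ecm2* holds 1 match to GGGCGG. *Omd* holds no match to any of the 5. Of 32851 mouse promoters of this length, 12.4% hold TATAAA, 32.7% GGGCGG, 33.8% CCAAT, 12.6% GGAATG and 6.7% TGANTCA, so each match is common. GC content was 40% for *Ecm2*, 30% for *Aspn*, 38.4% for *Omd* and 42% for *Ogn*, beside a median of 52.4% over all promoters and 64.4% for *Bgn*. A promoter entry was found for 8 of the 10 genes.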

How the data were processed

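RNA of 12 mouse hearts was compared, 4 each for day 1 AMI, day 7 AMI and sham, with groups and replicate numbers taken from the labels. The authors trimmed 150-base reads with Cutadapt, aligned them with STAR 2.4.0j to GRCm38 and used RSEM to estimate expression. For each of 53801 genes the authors deposited 2 values, an unnormalized whole count of reads and a TPM. The counting tool and the strand counted are not given in the sources used here. All rows name a gene.

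Counts were tested with edgeR 4.0.16 in R 4.3.3 (TMM, filterByExpr by group, quasi-likelihood test, 1 fit of the 12 libraries), with Benjamini-Hochberg adjustment over 15306 genes. Standard errors are those implied by the F statistic, and CPM on the log2 scale used a prior count of 2. TPM ratios within a heart were compared with exact permutation tests (scipy 1.17.1). Depth was 23204551 to 32166517 counts per library. A floor of 3 counts covers counting error only. Checked on simulated data with 200 genes changed 3-fold, the fit recovered 181 for day 1 AMI against sham (15148 genes), 183 for day 7 AMI against day 1 AMI (15139 genes) and 177 for day 7 AMI against sham (15147 genes). False calls numbered 3, 4 and 0 in the same order. The simulated counts followed the model of the fit, with as many genes raised as lowered. They therefore do not check how the calls depend on scaling.

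Alternatives were DESeq2 1.42.0, limma 3.58.1 on log2(TPM + 1) and log2(TPM + 0.1), RLE size factors, library sizes alone, no filter on low counts, only the groups compared, no mitochondrial genes, a replicate block, no FC minimum, and each heart left out. Exon overlap came from GENCODE M21 and promoters from RefSeq (GRCm38.p6). The members, the pathway lists and the marker lists were chosen with earlier results of these data known. Named beside them are, for each tested member, the 3 genes nearest in log2 CPM, and genes that overlap or adjoin a member. Newer symbols on the lists were matched through RefSeq synonyms.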

Additional observations from a re-analysis of the deposited data

Results flagged for a closer look

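In day 7 AMI, replicate 3 had 24.2 CPM of *Podn* and the other 3 hearts had 18.6 to 19.4. Its gap to the nearest heart was 0.834 of the range of the group on the log2 scale, above Dixon's 95% critical value for 4 samples. In all, 27 groups of 4 hearts were checked in this way, and chance marks about 1 in 20.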

How the results depend on the processing

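The rise of 8 members from day 1 to day 7 was counted as 8 in each alternative run, with or without any heart. Other counts moved with the scaling and with the FC minimum. On library sizes alone the median of all genes rose by 0.260 (day 1 AMI) and 0.425 (day 7 AMI) on the log2 scale against sham, and *Podn* turned positive in day 7 AMI against sham, at 0.24, and at 0.40 and 0.44 by limma on log2(TPM + 1) and log2(TPM + 0.1). Members called higher in day 7 AMI than in sham then numbered 7 in all 3 fits, since *Ogn*, *Prelp* and *Ecm2* passed a FC of 2. With no FC minimum they numbered 8, and in day 1 AMI 2 members were higher and 4 lower. By DESeq2 1 member, *Omd*, was lower in day 1 AMI (log2 FC −1.02, FDR 0.0344). Of the 4 lower at FDR alone, *Prelp* and *Ecm2* missed the FDR by limma on log2(TPM + 1), at 0.112 and 0.0516. With single hearts left out, the members called numbered 0 to 1 (lower, day 1 AMI against sham) and 3 to 5 (higher, day 7 AMI against sham). Genes called over the whole table numbered 3360 higher and 3043 lower in day 1 AMI against sham, 3701 and 3496 in day 7 AMI against day 1 AMI, and 4728 and 4353 in day 7 AMI against sham with no FC minimum. In the same order of comparisons, genes called lower numbered 63, 130 and 111 by limma on log2(TPM + 1) and 145, 208 and 189 on log2(TPM + 0.1), and on library sizes alone 217 in the first and 318 in the last. Genes higher in day 7 AMI than in sham numbered 4163 by limma on log2(TPM + 0.1) and 3633 on library sizes alone. Main counts were 1192 and 456, 1308 and 411, and 2346 and 900. With the replicate number as a block they were 1180 and 441, 1304 and 392, and 2341 and 899, and no call of a member changed. The labels do not say whether the numbers pair the hearts, and the values show no sign of it. Same-numbered hearts correlated at −0.244 to 0.229 in their deviations from the group means, with 4 of 12 pairs over 0.1. Hearts of different number correlated at −0.271 to 0.25, with 10 of 36 pairs over 0.1. Depth limits *Omd*, with 7 to 28 counts per sham library, and *Kera*, which was tested only without the filter on low counts. In that fit members called higher at day 7 AMI than in sham numbered 5. They include *Kera*, which had 1 to 4 counts per day 7 AMI library and is not read as a rise.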
